A study of Mus musculus with 10 samples.

Results

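The shared intergenic REST peaks are places in the mouse genome where both the WT and the 3xTg list from cortex hold a REST peak. Their summit in the 3xTg list lies outside curated genes and away from curated gene starts. They were chosen by the peak lists themselves: a peak of the 3xTg list counted as a member if it overlapped a peak of the WT list by at least 1 base, and if its summit lay over 1 kb from every curated RefSeq start site and outside every curated RefSeq transcript in mm10. Of 5077 peaks in the 3xTg list, after chromosome Y was left out, 680 met the rule. The gene limits apply to the summit alone, so a member peak can still reach a curated start site or transcript. With the whole peak held to these limits, 640 peaks remained. The other peaks were 1003 shared gene-body peaks, 806 shared promoter peaks, 676 intergenic peaks found only in the 3xTg list, 1162 gene-body peaks and 750 promoter peaks of the same kind. Chromatin was taken from the cortex of female mice at 11 months of age. The 3xTg mice carry human APPSwe and tauP301L transgenes on a PS1 knock-in, and have a mixed background of C57BL/6J with 129Sv/Ev, and the WT mice were their littermates. Each genotype had 4 replicates, each a pool of 4 cortices, and 1 input library. The cortex was used in bulk, so the cells that carry a peak are unknown. The deposited lists each combine the 4 replicates of a genotype. No value of a peak therefore has a replicate spread, the fold enrichment of a peak (its signal over the local background, a ratio) was not tested between genotypes, and the read depth behind the lists is not in the files used here.

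REST, also called NRSF, is a zinc finger repressor that keeps neuronal genes silent in cells that are not neurons and limits their activity in mature neurons. It binds a long motif called RE1, built of a left and a right half-site, and recruits the CoREST and SIN3 corepressor complexes with their histone deacetylases. RE1 sites are known both at gene starts and far from them, so a peak between genes can be a distal binding site of REST.

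The RE1 sites with at most 1 mismatch are printed first, since RE1 is the motif that REST is known to bind, with 2 more from a very high peak (Vstm2l) and from the edge of the 1 kb limit (Gprin1). An RE1 site was called where the consensus matched with at most 5 mismatches over its 19 fixed positions, on either strand, within 100 bases of the 3xTg summit. Each sequence is from mm10, on the strand of the site, with the 21 positions of RE1 in capitals and 10 bases on either side in lower case.
Prdm11, chr2:93071830-93071870, minus strand: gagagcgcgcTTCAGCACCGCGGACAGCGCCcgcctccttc
Kcnk9, chr15:72568695-72568735, minus strand: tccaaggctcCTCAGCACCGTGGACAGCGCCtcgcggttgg
A930031H19Rik, chr4:131115450-131115490, minus strand: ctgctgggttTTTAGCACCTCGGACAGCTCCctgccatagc
Lrfn3, chr7:30346797-30346837, plus strand: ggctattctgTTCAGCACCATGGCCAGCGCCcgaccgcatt
Kbtbd8, chr6:95223672-95223712, plus strand: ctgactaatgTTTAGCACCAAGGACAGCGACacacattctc
Kcnd3, chr3:105275426-105275466, minus strand: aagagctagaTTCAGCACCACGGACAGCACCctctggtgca
Vstm2l, chr2:157913502-157913542, minus strand: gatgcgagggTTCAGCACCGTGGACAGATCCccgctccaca
Gprin1, chr13:54750871-54750911, plus strand: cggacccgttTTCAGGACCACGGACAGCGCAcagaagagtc
The genes are those of the nearest curated start site. The site near Prdm11, a member of the PR-domain family of chromatin regulators, had 0 mismatches. The 5 sites that follow had 1 mismatch each, and those near Vstm2l and Gprin1 had 2, as had 18 others.

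Overlap with the WT list is what chose the members, so their share is background and nothing is read from it: 49.0% of all 3xTg peaks and 50.1% of the intergenic 3xTg peaks overlapped a WT peak. In the 3xTg list the members spanned a fold enrichment of 8.54 to 69.0, with a median of 14.7. In the WT list the peaks they overlapped spanned 6.0 to 68.6, with a median of 7.94. The lowest fold enrichment in the whole 3xTg list was 8.5 and that in the whole WT list 6.0, so weaker binding is not seen in either. The ratio of the 3xTg to the WT value had a median of 1.71 over the members, 1.74 over shared gene-body peaks and 1.64 over shared promoter peaks. The values of the 3xTg list were thus the higher ones by about the same ratio in all 3 kinds of shared peak. The WT value was the higher one in 5 members. One of them lay 4969 bases upstream of Smim17 (38.8 in the 3xTg list and 40.6 in the WT list) and had an RE1 site with 2 mismatches. The 5 were looked up after their values were seen.

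**Figure D1:**
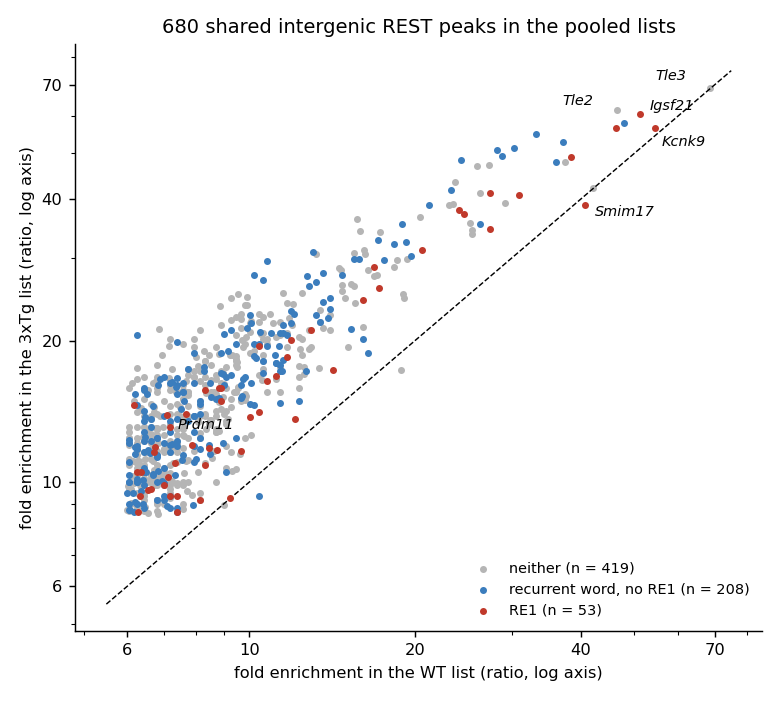
Fold enrichment of the 680 members in the pooled WT list (x axis, ratio, log axis) and in the pooled 3xTg list (y axis, ratio, log axis), 1 point per peak, with the dashed line at equal values. The 53 points with an RE1 site, the 208 with the word TAACTA but no RE1 and the 419 with neither lie together through most of the range from 8.54 to 69.0, and the labelled peak near Tle3 is the highest in both lists.

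The summits of the paired peaks lay close together. Their distance had a median of 29 bases and was at most 50 bases in 471 members (69.3%), while 7 members differed by more than 500. The member peaks had a median width of 901.5 bases in the 3xTg list and 551.5 in the WT list. In all, 676 members overlapped 1 WT peak and 4 overlapped 2. The summit of the paired WT peak lay within 1 kb of a curated start site in 4 members. The smallest overlaps were 262 bases, at a peak 9930 bases from Zfp131, and 265 bases, at a peak 125067 bases from Sipa1l1, so no member rested on a contact of a few bases. On the other side of the limit, the 3xTg-only intergenic peaks nearest to a WT peak were 124 bases away near Neat1 and 138 bases away near Tex44. At the 1 kb limit, the nearest members had their summits 1001 bases from Aloxe3 and 1037 bases from Gprin1, and the nearest shared peaks outside it had theirs 994 bases from Plekhb1 and 976 bases from Kcnh3.

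The strongest peak of both lists was a member. It lay at chr9:61368416-61373553, with its summit 1777 bases upstream of the start of Tle3, which encodes a corepressor of the Groucho family. The peak itself ran across that start site in both lists. Its fold enrichment was 69.0 in the 3xTg list and 68.6 in the WT list, rank 1 in each. The summit is within 1 kb of an annotated non-coding gene, Gm34157, whose transcripts are predicted and so not in the curated set. The next member, 4232 bases upstream of the related gene Tle2, had 61.8 and 46.5 (ranks 5 and 13). Neither had an RE1 site at the summit: the best matches had 8 and 7 mismatches. At Tle3 the 100 bases around the summit held 2 copies of GACAGCTC, a word close to the right half-site. It was in 30 members and 5 of 1352 windows 10 kb from them. The word comes from a list ranked by that excess, so it was not tested. Its copies are shown in capitals on the plus strand.
Tle3, chr9:61370539-61370638: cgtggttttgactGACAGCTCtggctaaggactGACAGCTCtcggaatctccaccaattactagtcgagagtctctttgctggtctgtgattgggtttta

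Of the 8 members next in fold enrichment, 3 had an RE1 site. Igsf21, which encodes a synaptic adhesion protein, had a member 12347 bases upstream with 60.6 in the 3xTg list and 51.3 in the WT list, and its site had 4 mismatches. Kcnk9, which encodes a leak potassium channel, had one 21009 bases upstream with 56.7 and 54.4 (ranks 12 and 3). Vstm2l had one 1173 bases upstream with 56.6 and 46.3. The other 5, near Sowahb (58.2 and 48.0), Kdm8 (55.1 and 33.1), A930001A20Rik (53.0 and 37.1), Kif2c (51.3 and 30.3) and Arrdc4 (50.9 and 28.2), had at least 7 mismatches to RE1 and between 1 and 11 copies of the word TAACTA described below, and that near Kif2c, which encodes a kinesin of the spindle, was within 1 kb of an snRNA gene. On the other side of the summit the nearest start sites of these 10 members were 11611 to 637654 bases away, with Tle5, another Groucho family gene, the closest at the Tle2 peak. Of the 300 highest peaks of the 3xTg list 92 were members, and 78 of those overlapped one of the 300 highest peaks of the WT list. The members were 680 of all 5077 peaks and 680 of the 2489 that overlapped a WT peak. The first 3xTg-only peaks stood at rank 246 (intergenic), 555 (gene-body) and 587 (promoter). The highest ranks were thus mostly shared peaks of any class, and nothing is read from the count of members.

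At the summit, 53 of the 680 members held an RE1 site (7.79%, Wilson 95% interval 6.01 to 10.1%). In windows of the same 200 bases placed 10 kb to either side, 4 of 1352 had one (0.296%). These windows, used for all motifs, were not screened for genes, start sites or other peaks. They were not matched for repeats either: 31.5% of their middle bases were masked, against 12.1% of member summits. The RE1 share was 1.63% (11 of 676) in 3xTg-only intergenic peaks, 5.08% (51 of 1003) in shared gene-body peaks and 7.69% (62 of 806) in shared promoter peaks. The members exceeded the 3xTg-only intergenic peaks (odds ratio 5.11, two-sided Fisher's exact test, p = 1.55e-07 adjusted by Benjamini-Hochberg over 9 comparisons). The median fold enrichment was 14.7 in the former and 9.84 in the latter, and with peaks compared within 10 equal bins of fold enrichment the odds ratio was 5.47 (Cochran-Mantel-Haenszel test, n = 680 and n = 676 peaks, adjusted p = 6.77e-06). Against shared gene-body peaks, with a median fold enrichment of 13.8, the odds ratio was 1.58 (by the same exact test, adjusted p = 0.0448), and this call was lost within the 10 bins (1.52, adjusted p = 0.0691). Against shared promoter peaks the odds ratio was 1.01 (by the same exact test, adjusted p = 1.0), and it turned to 0.576 (adjusted p = 0.00082) when the whole peak was searched, since 17.5% of those wider peaks then had a site against 10.9% of members. The units of these tests are peaks, not animals, neighbouring peaks are not independent, and the intervals and p-values cover counting over peaks only.

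**Figure D2:**
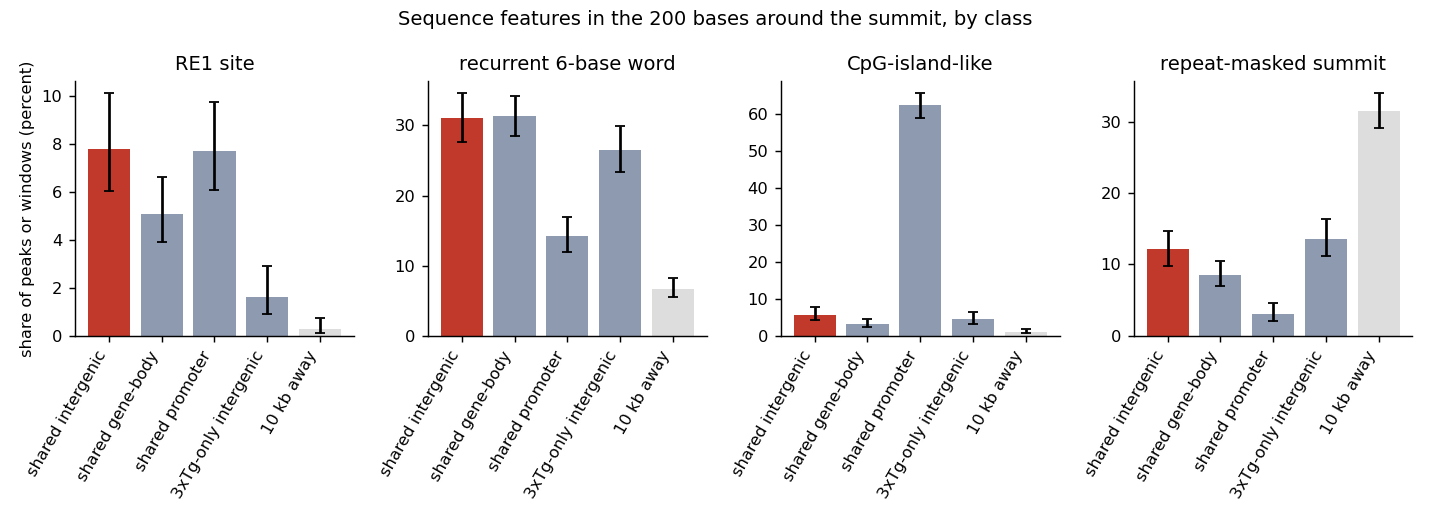
Share of peaks (y axis, percent) whose 200 bases at the summit hold an RE1 site, hold the recurrent word TAACTA, resemble a CpG island, or have a repeat-masked summit base, for the members, 3 other classes and windows 10 kb to either side of the members, with Wilson 95% intervals as error bars. RE1 was in 7.79% of members and 1.63% of 3xTg-only intergenic peaks, and 62.3% of shared promoter peaks were CpG-island-like against 5.74% of members.

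RE1 sites were found at all levels of enrichment. Of the 100 members with the highest 3xTg fold enrichment 14 had a site, and of the other 580 there were 39 (6.72%). With the members ordered by 3xTg fold enrichment and split into 4 equal parts, from the highest down, 17, 8, 13 and 15 of 170 members had a site. Members with a site had a median fold enrichment of 14.1 in the 3xTg list and 8.89 in the WT list, and members without one 14.7 and 7.94. The perfect site near Prdm11 was in a middling peak (13.9 in the 3xTg list and 7.08 in the WT list), 25690 bases from the start site. Of the sites with 1 mismatch, those near Lrfn3 (9.84 and 7.0), Kbtbd8 (9.15 and 8.13) and Kcnd3 (8.65 and 6.29) were in peaks of ranks 3275, 4103 and 4815 of 5077 in the 3xTg list, while those near Kcnk9 and A930031H19Rik were at ranks 12 and 75. Of the 53 sites, 26 had at most 2 mismatches. The median distance between the middle of the site and the summit was 23 bases, 24 sites were on the plus strand and 29 on the minus strand, and the 200 bases had a median GC content of 54.5% against 45.0% in the other members.

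**Figure D3:**
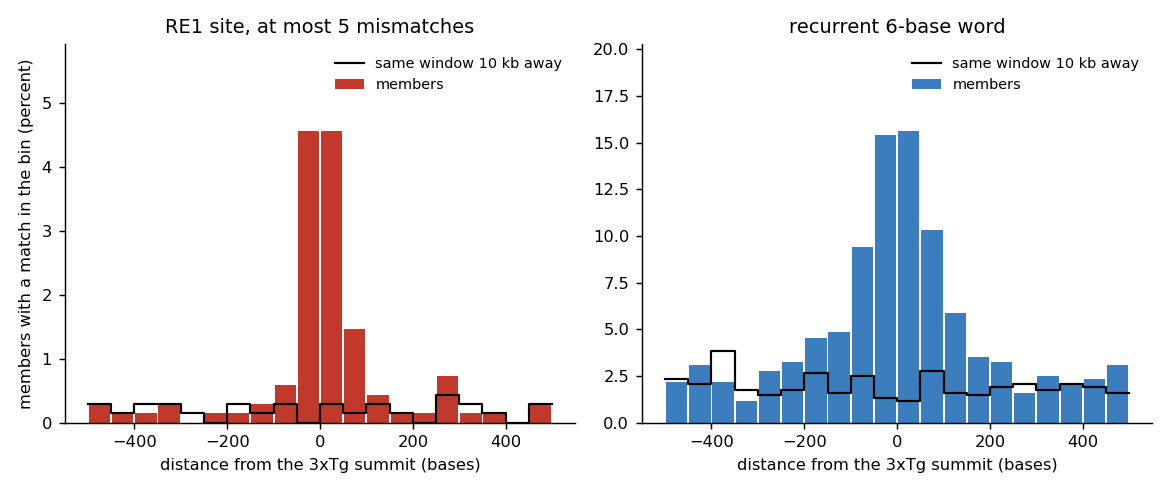
Share of members (y axis, percent) with an RE1 site (left) or the recurrent word TAACTA (right) in bins of 50 bases by distance from the 3xTg summit (x axis, bases), with the same count around a point 10 kb downstream as a black line. RE1 reached 4.56% in each of the bins next to the summit, and the word reached 15.4% and 15.6%.

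The half-sites were also searched singly. With at most 1 mismatch allowed, and with those inside a full RE1 counted too, the left half-site TTCAGCACC was in 12.8% of members and 5.18% of the windows 10 kb away, and the right half-site GGACAGCGC in 8.24% and 2.14%. A half-site in a window without an RE1 site was in 9.71% of members, 7.25% of the windows 10 kb away and 14.5% of shared promoter peaks. They stood at the canonical spacing, 11 bases from start to start, in 14 members, and 16 to 19 bases apart in 4. Of the 1352 windows 10 kb away, 0 held a pair of half-sites 9 to 30 bases apart, which allows a share of up to 0.222%. The 4 widely spaced pairs are shown on the strand of the site, with the half-sites in capitals.
Rph3a, chr5:121078735-121078779, minus strand: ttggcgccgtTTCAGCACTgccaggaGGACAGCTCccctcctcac
Mir137, chr3:118431561-118431607, minus strand: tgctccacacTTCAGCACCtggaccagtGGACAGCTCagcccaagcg
Gpatch2l, chr12:86213248-86213294, minus strand: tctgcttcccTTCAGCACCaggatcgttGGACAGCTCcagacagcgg
Mc3r, chr2:172241227-172241272, minus strand: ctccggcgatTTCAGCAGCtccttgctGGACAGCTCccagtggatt
The spacings were 16, 18, 18 and 17 bases in this order. Rph3a encodes rabphilin, a protein of synaptic vesicles, Mir137 a microRNA of neurons, and Mc3r a melanocortin receptor. The 4 genes were named after the pairs were seen. Their members had 3xTg fold enrichments of 34.4, 16.4, 13.8 and 12.6, and WT values of 25.3, 10.8, 6.88 and 10.1. In shared promoter peaks 29 had the canonical spacing and 20 a spacing of 16 to 19, and in shared gene-body peaks 16 and 10.

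Some members held a half-site in tandem. The word GTGCTGAA, the left half-site read on the other strand, occurred in 47 members (6.91%) and in 0.518% of the windows 10 kb away. It was also in 7.07% of shared promoter peaks, 3.99% of shared gene-body peaks and 1.63% of 3xTg-only intergenic peaks. It was present at least 2 times in 11 members, of which 10 had no RE1 site. The highest 2 of these 10, chosen after their values were seen, lay near Rph3a and Taf1b and are shown on the plus strand with the word in capitals.
Rph3a, chr5:121078693-121078792: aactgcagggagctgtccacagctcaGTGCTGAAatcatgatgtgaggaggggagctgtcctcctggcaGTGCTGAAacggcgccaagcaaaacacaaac
Taf1b, chr12:24425131-24425230: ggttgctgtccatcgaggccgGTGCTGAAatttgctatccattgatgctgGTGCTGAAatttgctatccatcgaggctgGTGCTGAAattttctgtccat
The member near Taf1b, which encodes a subunit of the RNA polymerase I initiation factor SL1, had a fold enrichment of 27.6 in the 3xTg list and 17.0 in the WT list. Its 3 copies stood in a repeated unit.

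The word that recurred most at the summits was not part of RE1. All 8-base words in the 100 bases around the summits were counted on both strands against the windows 10 kb away. The first was ACTAACTA, in 39 of 680 members and 3 of 1352 windows, and next to GTGCTGAA (37 and 2) came CTAACTAG (37 and 3), ACTAGTTA (36 and 7) and GTTAGTTA (33 and 2). These overlap in the core TAACTA, read on either strand. In the 200 bases, TAACTA was in 211 members (31.0%) and 6.73% of the windows 10 kb away. It was in 31.3% of shared gene-body peaks, 26.5% of 3xTg-only intergenic peaks and 14.3% of shared promoter peaks, so it was not particular to the members. Since the word was chosen for its counts here, it was not tested.

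TAACTA was in 3 of the 53 members with an RE1 site and in 208 of those without. A single copy was found in 142 members, 2 copies in 16 and at least 3 in 53, with up to 30 in the 200 bases. No window 10 kb away had 3 copies, which allows a share of up to 0.222%. At least 3 copies were in 7.79% of members and 6.78% of shared gene-body peaks, so such arrays were not particular to the members. The share was 1.48% in 3xTg-only intergenic peaks and 0.496% in shared promoter peaks. The members with at least 3 copies had a median fold enrichment of 17.6 in the 3xTg list and 9.72 in the WT list. In 13 of these 53, at least 50% of the 200 bases was masked as repeats in the reference. The stretches at the summits near Kdm8, whose product has a JmjC domain, near Arrdc4, which encodes an arrestin-domain protein, and near Sowahb show 3 kinds of array, on the plus strand with TAACTA and its reverse complement in capitals.
Kdm8, chr7:125463641-125463740: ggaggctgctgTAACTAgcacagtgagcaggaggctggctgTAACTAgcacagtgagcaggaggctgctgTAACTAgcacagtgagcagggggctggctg
Arrdc4, chr7:68858390-68858489: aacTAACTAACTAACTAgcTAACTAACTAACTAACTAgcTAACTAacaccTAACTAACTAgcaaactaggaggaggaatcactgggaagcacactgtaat
Sowahb, chr5:93054336-93054435: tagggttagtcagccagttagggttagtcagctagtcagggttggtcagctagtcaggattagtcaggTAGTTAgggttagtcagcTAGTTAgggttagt
Near Kdm8 the word recurred in a longer unit. Near Arrdc4 it stood mostly in runs of overlapping copies, with a few other bases between the runs. Near Sowahb it appeared in a degenerate repeat. Neither RE1 nor TAACTA was found in 419 members (61.6%).

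Other binding motifs were searched on both strands in the same 200 bases and are given as a description. The AP-1 motif TGANTCA was in 13.5% of members and 6.51% of the windows 10 kb away, and the homeobox core TAATTA in 11.2% and 5.92%. In all 3xTg peaks the shares were 12.1% and 9.12%, with shared promoter peaks the lowest class (3.1% and 2.11%). They were above those of the members in shared gene-body peaks (16.6% and 11.6%) and 3xTg-only intergenic peaks (16.6% and 13.3%). The same held for 3xTg-only gene-body peaks (15.7% and 12.5%), so neither motif was particular to the members. The SP1/KLF box GGGCGG was in 6.91% of members, 2.74% of the windows and 42.8% of shared promoter peaks. The E-box CAGNTG was in 42.8% of members and 38.3% of the windows, the CTCF core CNAGNGGGC in 2.06% and 1.26%, and the SOX word ACAAAG in 13.4% and 17.9%. The ETS motif CCGGAAG, the RFX motif GTTGCNATG, the MEF2 motif TTAAAAATA and the CRE TGACGTCA were each in at most 8 members, and the NRF1 core GCGCATGCG in 0 of 680, which allows a share of up to 0.441%.

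The members differed from promoter peaks in base composition. A window was called CpG-island-like where GC was at least 50% and the observed over expected CpG at least 0.6, which held for 39 members (5.74%) and 502 shared promoter peaks (62.3%; odds ratio 0.0368, two-sided Fisher's exact test, adjusted p = 4.37e-127). The share in 3xTg-only intergenic peaks was 4.59% (odds ratio 1.27, Fisher's exact test, adjusted p = 0.469), a difference this number of peaks did not resolve. Of the 39, 8 had an RE1 site and 11 were within 1 kb of the start of a predicted transcript. The summit base was repeat-masked in 82 members (12.1%), 25 shared promoter peaks (3.1%; odds ratio 4.28, Fisher's exact test, adjusted p = 1.3e-10), 92 3xTg-only intergenic peaks (13.6%; odds ratio 0.87, adjusted p = 0.469) and 31.5% of the windows 10 kb away. Against shared gene-body peaks the CpG-island-like share (3.29%; odds ratio 1.79, Fisher's exact test, adjusted p = 0.0368) and the repeat share (8.57%; odds ratio 1.46, adjusted p = 0.0368) passed the test, but with 3xTg peaks of fold enrichment over 10 alone neither did (adjusted p = 0.0934 and 0.144).

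The distance from a member's summit to the nearest curated start site had a median of 35027.5 bases and reached 1429897. Within 50 kb of a start site lay 407 members (59.9%), and within 5 kb 82. Upstream of the nearest gene's start lay 429 members, and 251 lay past its 3′ end. The gene was chosen by its start site and summits inside transcripts were left out. A summit past a 3′ end is therefore at least a transcript length from that start, which favours the upstream side. The split is given without that of another class, and nothing is read from it. The 3 members farthest from any start site were on chromosome 8 (Got2, 1429897 bases) and on chromosome 1 (Pla2g4a, 1265245 bases, and Cntnap5a, 1137455 bases). Their 3xTg fold enrichments were 10.5, 10.01 and 13.5, their WT values 8.08, 8.7 and 7.56, and none had an RE1 site. Got2 encodes mitochondrial aspartate aminotransferase, Pla2g4a a cytosolic phospholipase and Cntnap5a a contactin-associated adhesion protein. The 3xTg-only intergenic peaks had a median distance of 37779.5 bases.

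**Figure D4:**
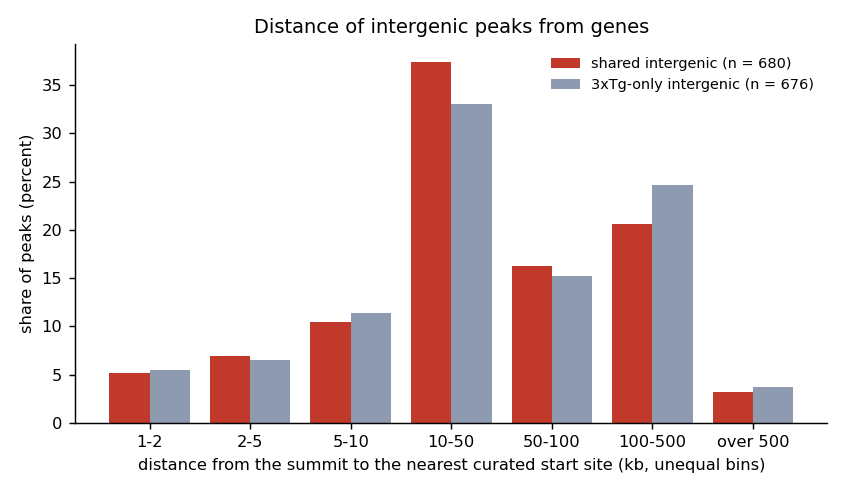
Distance from the summit to the nearest curated start site (x axis, kb, bins of unequal width) and share of peaks (y axis, percent) for the 680 members and 676 3xTg-only intergenic peaks. The bin from 10 to 50 kb held 37.4% of members and 33.0% of the 3xTg-only peaks, and 3.24% and 3.7% were over 500 kb away.

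The gene groups near the members were fixed by symbol, so a group can hold a gene whose main role is another one. The nearest start site belonged to a gene of one of 11 groups of neuronal or regulatory genes in 69 members (10.1%), against 44 of the 676 3xTg-only intergenic peaks (6.51%) and 1867 of 26089 annotated genes (7.16%). Among the 53 members with an RE1 site the number was 9 (17.0%). These shares are a description and were not tested. By group, the members and the 3xTg-only intergenic peaks numbered 7 and 5 for potassium channels, 4 and 1 for glutamate receptors, 4 and 1 for neuropeptides, granins and neurotrophins, and 8 and 3 for adhesion genes. These groups held 0.376%, 0.103%, 0.0843% and 0.517% of all annotated genes, beside 1.03%, 0.588%, 0.588% and 1.18% of members. The numbers were equal for vesicle release (4 and 4), axon guidance (3 and 3) and neural transcription factors (7 and 7). Those groups held 0.291%, 0.276% and 0.506% of all annotated genes, beside 0.588%, 0.441% and 1.03% of members. Several numbers changed when start sites within 50 kb were counted, as given near the end.

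Genes of the channel groups, set by symbol, were the nearest of 9 members. Of the 7 potassium channel members, 3 had an RE1 site. Besides Kcnk9, the highest lay 96262 bases upstream of Kcnj6, an inwardly rectifying channel gene, with 22.6 in the 3xTg list and 14.0 in the WT list and no RE1 site. The other 2 with a site, named after their values were seen, lay near Kcnh2 (13.6 and 12.1, 2 mismatches) and Kcnd3 (8.65 and 6.29, 1 mismatch). The 2 sodium and calcium channel members, against 1 3xTg-only intergenic peak, were near Scn8a (19.4 and 12.9) and Cacng5 (12.3 and 7.38), without RE1 sites. That group was nearest to 0.294% of members and 0.148% of 3xTg-only intergenic peaks, and held 0.192% of all annotated genes.

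Genes of synapses and secretion came next. The 4 glutamate receptor members lay 107982 bases upstream of Grik3, a kainate receptor subunit gene (17.6 and 8.26), and near Grin2a, Grm7 and Gria1. None had an RE1 site, and the first had 16 copies of TAACTA and that near Grin2a, an NMDA receptor subunit gene (14.7 and 8.13), had 5. Inhibitory and cholinergic receptor genes were nearest to 3 members (0.441%) and 0 of the 676 3xTg-only intergenic peaks, which allows a share of up to 0.444%. The members' share lies within that limit, so no contrast is read. This group held 0.184% of all annotated genes. Members lay near Gabrb2, which encodes a GABA-A receptor subunit (13.1 and 6.62), and Gabbr2, which encodes a GABA-B subunit. The latter, 1335 bases upstream of its start site, had an RE1 site with 4 mismatches and values of 14.6 and 6.16. Vesicle release genes were nearest to 4 members, with the highest near Syt6 (18.1 and 8.32), a synaptotagmin gene, and Stxbp5 (17.8 and 9.46), which encodes tomosyn. Neuropeptide genes were also nearest to 4, with the highest near Npy (17.5 and 12.6) and Cartpt (16.1 and 7.56). No RE1 site was found in these last 8.

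Adhesion and axon guidance genes were the nearest of 8 and 3 members. The highest adhesion members were near Cdh19 (16.7 and 9.83), with 7 copies of TAACTA, and Slitrk5 (16.7 and 8.32). The 2 with an RE1 site were near Lrfn3 and Nrxn3, a presynaptic neurexin gene (15.7 and 8.32, 2 mismatches), the latter named after its values were seen. The members of the axon guidance group, set by symbol, were near Robo4 (19.3 and 15.1) and, for 2 of the 3, Ephb3, an ephrin receptor gene (17.3 and 11.3 for the higher).

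Genes of the neural transcription factor group, set by symbol, were nearest to 7 members. The highest was past the 3′ end of Lhx2, a LIM homeobox gene of cortical development, 66842 bases from its start, with 31.2 in the 3xTg list and 20.6 in the WT list and an RE1 site with 3 mismatches. MicroRNA genes, by symbols that start with Mir, were nearest to 27 members (3.97%, against 2.81% of the 3xTg-only intergenic peaks and 4.58% of all annotated genes). Of these 1 had an RE1 site and 11 had TAACTA, and the highest were near Mir6935 (42.1 in both lists) and Mir152 (39.2 and 29.1). The member 2297 bases upstream of Mir137 (16.4 and 10.8) is the one whose spaced half-sites are printed above. No member had Rest or a corepressor gene of the list as its nearest gene, a group that held 0.046% of all annotated genes.

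Within 100 kb of each other, 107 members formed 41 groups, and 573 stood alone. The largest group held 8 members between the summits at 69011769 and 69125376 on chromosome 11. From the first to the last their fold enrichments in the 3xTg list were 16.2, 28.3, 10.3, 26.4, 23.2, 10.3, 21.7 and 8.54, and in the WT list 8.98, 16.5, 6.68, 15.3, 13.5, 7.1, 10.02 and 6.83. The 5 members with the highest values were the same in both lists. The nearest genes were Pfas, a purine synthesis enzyme gene, Aurkb, which encodes a mitotic kinase, Borcs6, the clock gene Per1, Hes7 and Aloxe3. Of the 8, 5 were within 1 kb of tRNA genes, such as n-TIaat5 and n-TSaga4, and 1, near Per1, had an RE1 site with 4 mismatches.

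**Figure D5:**
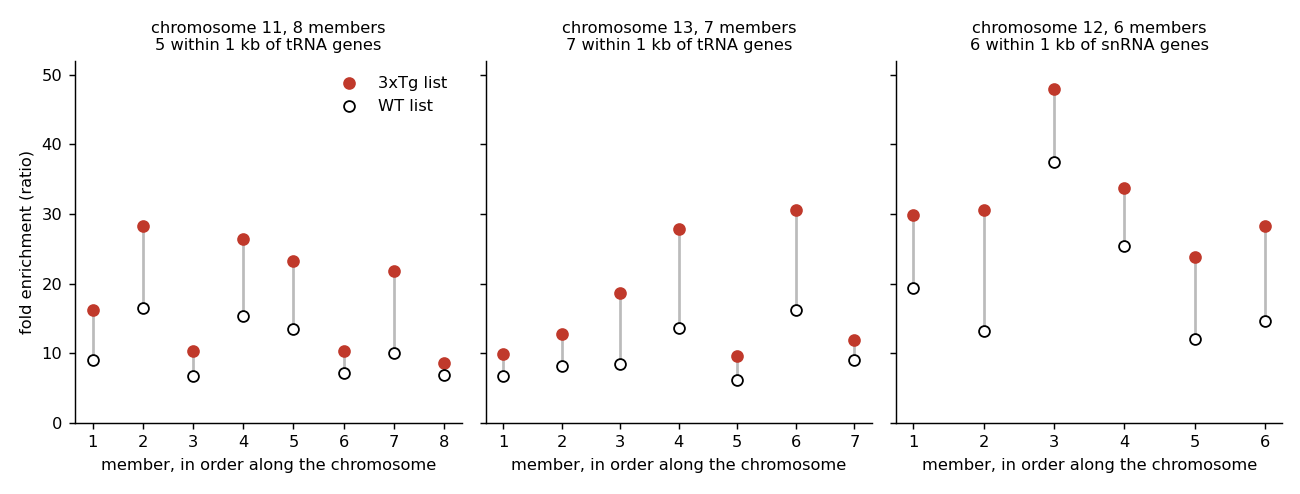
Fold enrichment (y axis, ratio) of each member of the 3 largest groups in the 3xTg list (filled) and the WT list (open), by order along the chromosome (x axis). The values ran from 8.54 to 28.3 in the 3xTg list on chromosome 11, from 9.67 to 30.6 on chromosome 13 and from 23.9 to 48.0 on chromosome 12, all above the WT value of the same member.

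Small RNA genes were close to the next groups too, which were named after they were seen. All 7 members of a group on chromosome 13, with Trim27, Gpx5 and Gpx6 as nearest genes, were within 1 kb of tRNA genes (9.67 to 30.6 in the 3xTg list and 6.11 to 16.2 in the WT list). All 6 members of a group on chromosome 12 upstream of Eapp were within 1 kb of snRNA genes (23.9 to 48.0 and 12.0 to 37.4). RNA polymerase III transcribes tRNA genes, and snRNA genes encode RNAs such as those of the spliceosome. Over all members, 34 (5.0%) were within 1 kb of a tRNA gene and 14 (2.06%) within 1 kb of an snRNA gene, against 17 (2.51%) and 4 (0.592%) of the 676 3xTg-only intergenic peaks. Of the 806 shared promoter peaks, 10 were within 1 kb of a tRNA gene and 18 (2.23%) within 1 kb of an snRNA gene, so peaks near such genes were not all intergenic. None of the 48 members had an RE1 site, and the median fold enrichment was 15.2 in the 3xTg list for those at tRNA genes and 24.9 for those at snRNA genes, beside 14.7 for all members. Without peaks near either kind of gene in any class, the RE1 odds ratio against 3xTg-only intergenic peaks was 5.37 (Fisher's exact test, adjusted p = 3.74e-08). No RE1 site was removed from either class (53 of 632 members and 11 of 656 peaks left), so this setting could hardly change the odds ratio.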

How the data were processed

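REST was immunoprecipitated from pooled mouse cortices with an antibody against its C-terminus and sequenced as single-end reads. Per the authors' methods, reads were aligned with STAR 2.7.0a, peaks were called with MACS and kept at a fold enrichment over 5 and q under 0.01, and peaks on the ENCODE blacklist were removed. The submitters' processing notes also name BWA and mm10. The authors deposited 1 list per genotype, with 3010 WT and 5086 3xTg peaks, which hold for each peak a score, a fold enrichment over background (a ratio), the −log10 q-value and the summit offset. The −log10 p-value column was not used. A pooled list favours regions strong in any replicate, and its values depend on depth, so they are set side by side and not tested between genotypes.

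Chromosome Y peaks, 4 in the WT list and 9 in the 3xTg list, were not used. Start sites and transcripts were the 45756 curated RefSeq NM and NR models of GRCm38.p6 (mm10), from which the sequences were read too. Where a member overlapped 2 WT peaks, the stronger was used. Shares were compared with two-sided Fisher's exact tests (scipy), adjusted over 9 comparisons at a threshold of 0.05. The RE1 consensus and motifs were taken from general knowledge. The searches and tests were tested on simulated data. The members, gene groups and motifs were chosen with earlier results of these data known. Peaks were named by rule: the 10 highest members by 3xTg fold enrichment, the 5 with fewest RE1 mismatches, the 3 farthest from a gene, the 2 on either side of each limit, the 2 highest in each gene group, and the largest group within 100 kb. Other names are marked as chosen after their values were seen. A few peaks that the rule names are not reported here. Alternatives are listed at the end.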

Additional observations from a re-analysis of the deposited data

How the results depend on the processing

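No paired analysis was possible because each deposited list combines the 4 replicates of a genotype, and no replicate could be left out for the same reason. The number of members ranged from 523, with an overlap of 50% of both peaks, to 687, counted in the WT list. It was 541 with predicted RefSeq models included and 565 with GENCODE vM21 transcripts, an alternative chosen after seeing the data, as were leaving out peaks near tRNA or snRNA genes and leaving out windows with at least 3 copies of TAACTA. The RE1 share stayed above that of 3xTg-only intergenic peaks in all 14 alternatives (odds ratios 2.53 to 5.76), and the calls on CpG-island-like and repeat-masked shares against shared promoter peaks held in all 10 (0.0239 to 0.041 and 3.15 to 14.1). Leaving out peaks near tRNA or snRNA genes, or windows with at least 3 copies of TAACTA, removed no RE1 site from the members or the 3xTg-only intergenic peaks. Those settings could therefore hardly change the RE1 odds ratio between these classes. The calls against shared gene-body peaks were less firm. For RE1 the odds ratio no longer passed with all RefSeq models (1.56), the 50% overlap (1.54), fold enrichment over 10 (1.37), at most 6 mismatches (1.25), 50 bases around the summit (1.51), 10 bins of fold enrichment (1.52) and GENCODE (1.52). For CpG-island-like windows it no longer passed with all RefSeq models (1.22), the 50% overlap (1.75), fold enrichment over 10 (1.73), 500 bases (1.72) and without peaks near tRNA or snRNA genes (1.56), and for repeats with fold enrichment over 10 (1.35) and GENCODE (1.37). The RE1 share against shared promoter peaks, 1.01, turned to 0.62 with at most 6 mismatches and 0.576 with the whole peak searched. The causes of these changes were not tested. A limit of q under 1e-05 removed no peak. The share of members near a gene of the fixed groups was 10.1% by the nearest start site and 9.85% with start sites within 50 kb. The groups behind these similar shares differed. In this order, the members numbered 4 and 0 for glutamate receptors, 4 and 1 for neuropeptides, granins and neurotrophins, and 8 and 4 for adhesion. Potassium channels had 7 and 4, vesicle release 4 and 10, axon guidance 3 and 8, and microRNA genes 27 and 31. The counts within 50 kb are given for the members only. The depth of the libraries, which limits the weakest peaks that could be called, is not in the files used here.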

Other observations

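Known enhancers were few among the members. RefSeq lists 1015 enhancers on these chromosomes, mostly from transgenic mouse embryos, and 6 members overlapped one, against 3 of the 3xTg-only intergenic peaks. The names come from a search made after the members were known. The highest was 112045 bases from Bach2, a transcription factor gene, with a fold enrichment of 17.5 in the 3xTg list and 13.4 in the WT list, on an enhancer active in hindbrain and cranial nerves. Those near 9130221F21Rik (16.7 and 9.08) and Mir125b-1 (15.3 and 7.75) lie on enhancers active in forebrain, midbrain and hindbrain. None of the 6 had an RE1 site, and 1 had TAACTA.

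The members were spread over all 20 chromosomes used, from 0.076 per Mb on chromosome X to 0.399 per Mb on chromosome 13. The chromosome X value was the lowest, with 13 members, and 13 of the 3xTg-only intergenic peaks were also there.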
